A study of Homo sapiens with 9 samples.

Results

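The suprabasal keratins KRT1, KRT4, KRT10, KRT13, KRT23 and KRT80, 6 genes usually counted among those of differentiating epithelial cells, were followed through CRISPR-edited CAL27 cells. They were found by gene symbol among 78894 listed gene identifiers, of which 55 are keratins, and all 6 were listed in each sample. The genes were picked with their levels in these samples already known, so their levels and differences from Control are described below without a test. CAL27 is an established line of squamous carcinoma cells from the tongue, and polyA RNA was sequenced from 9 samples. The 4 groups were Control with 3 samples and the edited groups A2ko, A8ko and C9ko with 2 samples each, all grown without treatment. The labels name neither the sequence edited in the knockouts nor what the Control cells carried, and whether each group was a single clone or pooled cells is not given. The title of the series is about an enhancer acting in squamous carcinoma of the head and neck.

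Both A2ko files were the same in every gene, as were both A8ko files, so each of these groups contributes 1 library. With 3 Control and 2 C9ko libraries, 7 distinct libraries remained. Differences in A2ko and A8ko thus have no check by replicates. Nothing in the labels says that the Control or C9ko samples came from separate cultures, so their spread may be technical. Levels are in TPM (transcript abundance scaled to a fixed library total). TPM is a share of the library corrected for gene length, and the sequencing depth behind them is unknown.

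Keratins are the intermediate filament proteins of epithelial cells, and a filament needs a partner from each class, the acidic type I and the basic type II. In stratified epithelium the basal layer makes KRT5 and KRT14, and cells that leave it switch to other pairs. KRT1 (type II) with KRT10 (type I) marks the suprabasal layers of cornified epithelium such as epidermis, and KRT4 (type II) with KRT13 (type I) those of the moist mucosa of the mouth and oesophagus. KRT80 is a type II keratin and KRT23 a type I keratin, and neither is a classical partner in those pairs. Type I genes lie together on chromosome 17 and type II genes on chromosome 12, except that the type I gene KRT18 lies at an end of the chromosome 12 cluster.

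All 8 squamous epithelial markers examined (KRT5, KRT14, TP63, CDH1, DSG3, DSC3, PERP and SFN) were detected. Their summed level was 14253 to 15172 TPM in Control and 4800 to 8848 TPM in the knockouts. KRT5 (Control mean 8917 TPM) and KRT14 (3877 TPM) made up most of the Control sum, and both were lower in every knockout. The sum therefore mainly follows these keratins. Over all 8 markers the median log2(TPM + 1) difference from Control came to -0.199 in C9ko, beside -0.591 for A2ko and -0.585 for A8ko. The simple epithelial markers were KRT7, KRT8, KRT18, KRT19 and KRT20. Their summed level was 466 to 485 TPM in Control and 458 to 1166 TPM in the knockouts. KRT8 and KRT18 (Control means 235 and 230 TPM) made up most of it. KRT19 had a log2(TPM + 1) difference of -1.06 in A8ko and -0.56 in C9ko, against 0.56 in A2ko. Few markers of other cell types reached 1 TPM in any library: 3 of 7 for fibroblasts, 1 of 6 for leukocytes (CD14), 1 of 4 for endothelium (CDH5) and 1 of 4 for melanocytes (PMEL). Their summed levels in Control and in the knockouts were 10.8 to 12.3 and 7.43 to 17.7 TPM for fibroblasts, 14.6 to 18.2 and 16.5 to 52.8 TPM for leukocytes, 3.51 to 4.55 and 8.63 to 30.1 TPM for endothelium, and 1.60 to 2.07 and 2.22 to 4.38 TPM for melanocytes. Of these markers COL3A1, TYROBP, KDR, TYR and DCT were listed at 0 in all 7 libraries, and PTPRC did not exceed 0.0232 TPM. In C9ko the log2(TPM + 1) differences were 1.66 for CD14, 2.51 for CDH5 and 0.55 for PMEL. The median over the 3 tested fibroblast markers was 0.07 there. Mitochondrial transcripts took 23.1% to 26.9% of the TPM in Control and 17.9% to 25.2% in the knockouts. The part of these measures in the differences below was not tested. In bulk RNA, fewer cells that make a keratin and less of its RNA per cell cannot be told apart.

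The cornified-type pair was low in every knockout, KRT1 much more so than KRT10. KRT1 (ENSG00000167768; GRCh38, chromosome 12, 52674736 to 52680407, minus strand) had 16.8, 19.8 and 18.9 TPM in the 3 Control libraries (mean 18.5 ± 1.51, SD, n = 3). It had 3.08 TPM in A2ko, was listed at 0 in A8ko, and had 0.459 and 0.464 TPM in C9ko. All 4 knockout libraries lay below the Control range, and the C9ko pair differed by less than the Control libraries did. The A2ko level was 16.7% of the Control mean and the C9ko mean was 2.50% of it. On the log2(TPM + 1) scale, the scale of all log2 differences here, KRT1 differed from Control by -2.25 in A2ko and -3.73 in C9ko (SE 0.11).

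KRT10 (ENSG00000186395; chromosome 17, 40818117 to 40822595, minus strand) had 29.4, 28.6 and 27.6 TPM in Control (mean 28.5 ± 0.946, SD, n = 3). It had 17.6 TPM in A2ko, 14.4 TPM in A8ko, and 14.1 and 13.9 TPM in C9ko. No knockout library overlapped the Control range, yet KRT10 stayed well detected in each of them. Its levels were 61.5%, 50.5% and 49.1% of the Control mean in A2ko, A8ko and C9ko. KRT10 was the member with the smallest difference in C9ko among those with at least 1 TPM throughout, at -0.98 on the log2 scale (SE 0.07), beside -0.67 in A2ko and -0.94 in A8ko. KRT10 lies across the opposite-strand gene KRT10-AS1, which had 17.4 to 19.1 TPM in Control, 20.7 and 18.2 TPM in A2ko and A8ko, and 14.8 and 14.6 TPM in the C9ko pair. Whether counting used the strand is not given in the sources used here, so reads of this pair may not be fully separated.

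The mucosal pair held the most abundant member in Control, KRT4, and KRT13, which stayed near Control in A2ko but not in the other knockouts. KRT4 (ENSG00000170477; chromosome 12, 52806549 to 52814551, minus strand) had 202, 198 and 197 TPM in Control (mean 199 ± 2.82, SD, n = 3). It had 37.7 TPM in A2ko, 0.106 TPM in A8ko, and 1.37 and 0.857 TPM in C9ko. Every knockout library was far below the narrow Control range, with A2ko between Control and the other knockouts. A2ko kept 19.0% of the Control mean, C9ko 0.559% and A8ko 0.0531%, a level too near 0 for its ratio to be read closely. As log2 differences these were -2.37 for A2ko, -7.50 for A8ko and -6.58 for C9ko (SE 0.11).

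KRT13 (ENSG00000171401; chromosome 17, 41500981 to 41505705, minus strand) had 94.95, 88.7 and 97.2 TPM in Control (mean 93.6 ± 4.40, SD, n = 3). It had 83.1 TPM in A2ko, 2.23 TPM in A8ko, and 1.68 and 2.50 TPM in C9ko. A2ko was just below the lowest Control library, while A8ko and C9ko were close to each other and far below. Relative to the Control mean these levels were 88.8% for A2ko, 2.38% for A8ko and 2.23% for C9ko. The A2ko difference of -0.17 on the log2 scale was little larger than the 0.11 by which a single Control library differed from the mean of the other 2, whereas the differences were -4.87 in A8ko and -4.95 in C9ko (SE 0.12). Scaling by the median of ratios took the A2ko difference to -0.33, and leaving out mitochondrial genes to -0.16.

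KRT80 was the member with higher levels in the knockouts. KRT80 (ENSG00000167767; chromosome 12, 52168996 to 52192000, minus strand) encodes a type II keratin reported near desmosomes and cell margins. It had 57.4, 54.0 and 52.5 TPM in Control (mean 54.6 ± 2.51, SD, n = 3), against 73.1 TPM in A2ko, 148 TPM in A8ko, and 196 and 217 TPM in C9ko. All knockout libraries lay above the Control range, in the order A2ko, A8ko, C9ko. The levels were 1.34-fold, 2.71-fold and 3.78-fold the Control mean, or log2 differences of 0.41, 1.42 and 1.90 (SE 0.07 in C9ko). The opposite-strand gene LINC00592, which overlaps KRT80, was also higher in the knockouts but stayed at 0.818 to 1.81 TPM there and 0.314 to 0.534 TPM in Control.

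KRT23 (ENSG00000108244; chromosome 17, 40922696 to 40937634, minus strand), a type I keratin, was barely detected. It had 0.679, 0.652 and 0.442 TPM in Control (mean 0.591 ± 0.130, SD, n = 3), 1.04 TPM in A2ko, 0.289 TPM in A8ko, and 0.619 and 0.297 TPM in C9ko. A2ko was above the Control range and A8ko below it, while 1 C9ko library lay within the range and the other below. The differences of 0.36, -0.30 and -0.13 on the log2 scale stand beside 0.21 for a single Control library against the other 2. With at least 1 TPM in just 1 library, KRT23 did not pass the filter on low values, and it enters none of the counts of tested genes below.

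**Figure D1:**
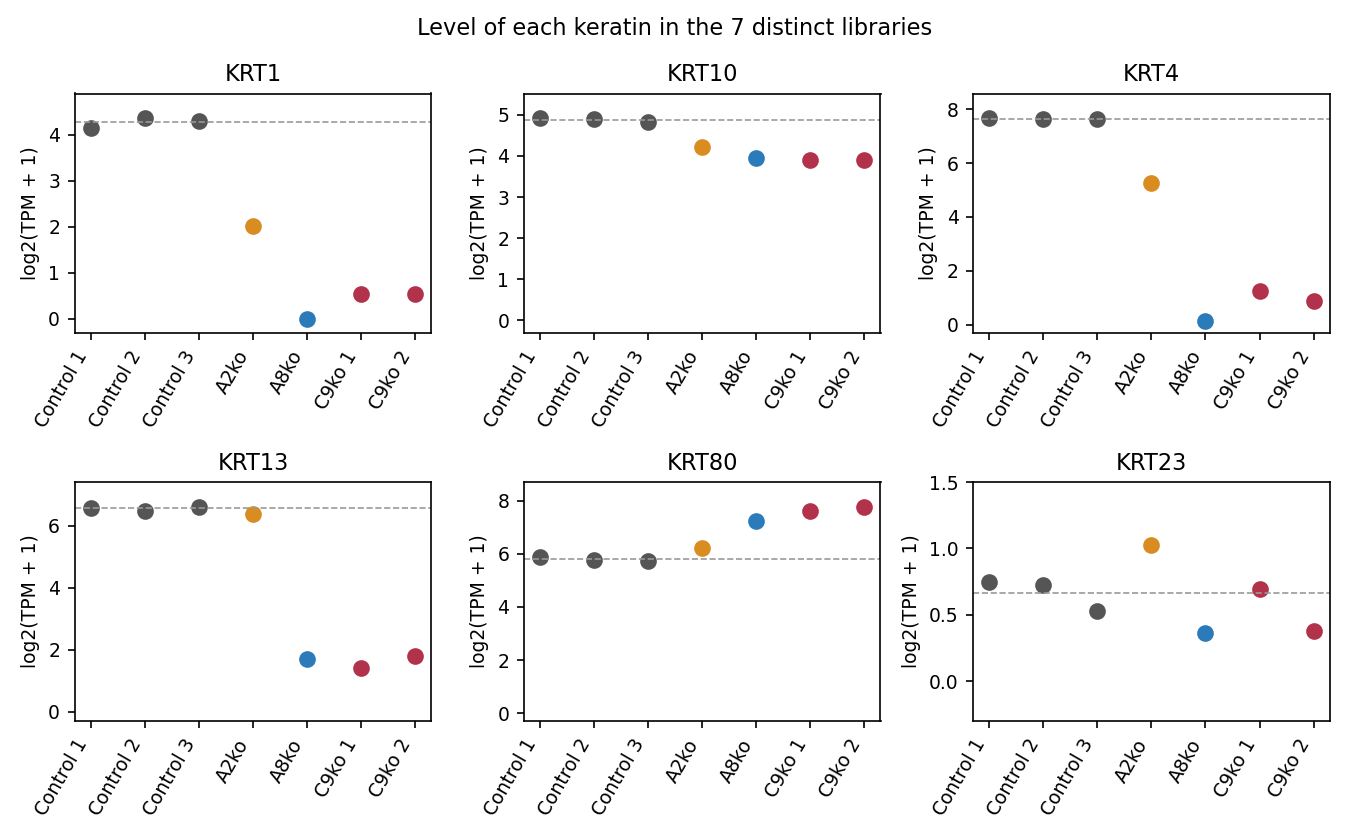
Level of each keratin in the 7 distinct libraries, as log2(TPM + 1) on the vertical axes, with 1 point per library. KRT1, KRT4 and KRT10 are below the Control libraries in all 4 knockout libraries, KRT13 is 83.1 TPM in A2ko and at most 2.50 TPM in A8ko and C9ko, and KRT80 is highest in C9ko.

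The order of the levels in Control was KRT4, KRT13, KRT80, KRT10, KRT1 and KRT23, and the ranges of neighbours in this order did not overlap. In A2ko it was KRT13, KRT80, KRT4, KRT10, KRT1 and KRT23, each with 1 value. In both C9ko libraries KRT80 was first and KRT10 second, followed by KRT13 at 1.68 and 2.50 TPM and KRT4 at 1.37 and 0.857 TPM. KRT1 at 0.459 and 0.464 TPM and KRT23 at 0.619 and 0.297 TPM overlapped at the bottom of the C9ko order. A8ko had KRT80 and KRT10 in the same leading places, then KRT13, KRT23 and KRT4, with KRT1 listed at 0.

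To place these differences among all genes, 17100 genes with at least 1 TPM in at least 2 distinct libraries were examined, among them 5 of the 6 keratins. A gene was counted for a knockout when it lay above or below all 3 Control values and differed from their mean by 1 log2 unit or more. This held for 5.07% of all genes for A2ko, 4.73% for A8ko and 5.11% for C9ko. In A2ko 2 keratins were counted as lower (KRT1 and KRT4) and none as higher, beside 1.53% of all genes lower and 3.54% higher. In A8ko 3 were lower (KRT1, KRT4 and KRT13) and KRT80 was higher, beside 2.68% and 2.05% of all genes. C9ko gave those same 4 keratins in those directions, beside 1.78% and 3.33%. KRT1 and KRT4 were lower in all 3 knockouts, as were 73 genes in all, 0.427% of those examined, while 0.579% were counted in all 3 knockouts in either direction. KRT10 stayed inside 1 log2 unit in each knockout, although scaling by the median of ratios took it to -1.02 in A8ko and -1.09 in C9ko, and leaving out mitochondrial genes to -1.02 and -1.08. These shares are given for scale only, since the keratins were chosen on these differences and the 3 comparisons share their Control libraries. A single Control library held against the other 2 gave 105 to 113 such genes.

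**Figure D2:**
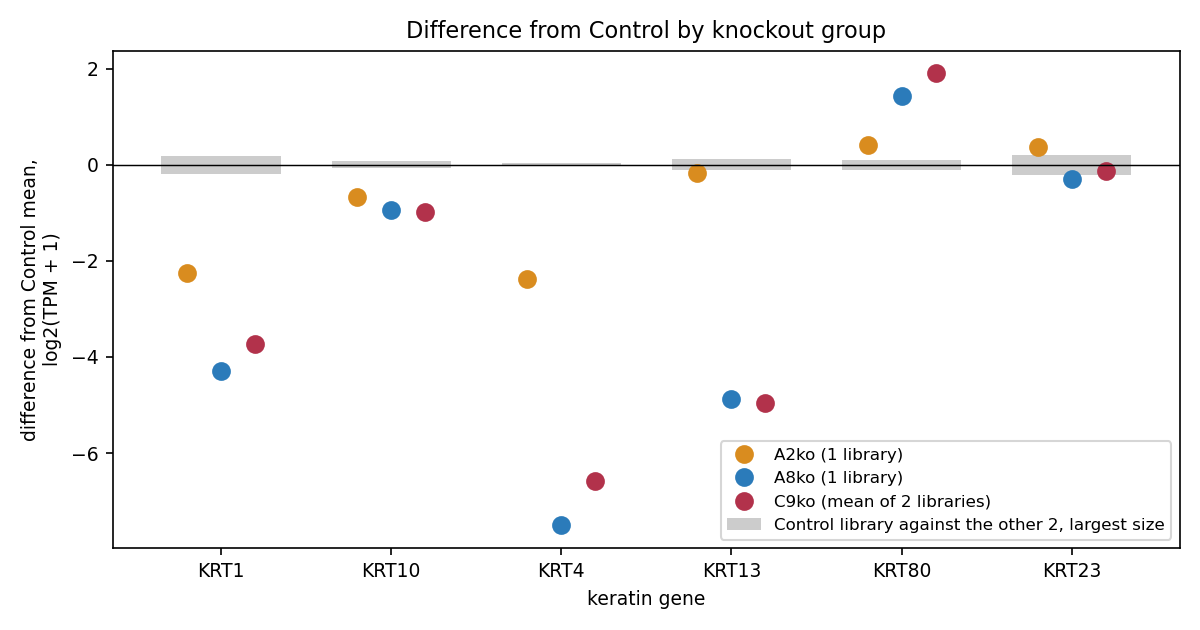
Difference of each knockout group from the Control mean on the log2(TPM + 1) scale, with 1 point per keratin and group; grey bands show the largest difference of 1 Control library from the other 2. KRT4 spans -2.37 to -7.50, KRT10 stays between -0.67 and -0.98, KRT80 lies above 0 throughout, and KRT1 in A8ko is drawn from a listed value of 0.

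Members of a pair did not change in proportion. KRT10 had 1.75, 1.45 and 1.46 TPM for each TPM of KRT1 in the Control libraries (mean 1.55 ± 0.171, SD, n = 3). This ratio was 5.70 in A2ko and 30.6 and 30.1 in C9ko, and cannot be formed in A8ko, where KRT1 was listed at 0. All ratios that could be formed were above the Control range, so KRT1, the type II partner, was lower relative to KRT10 there than in Control. The summed TPM of KRT1 and KRT10 was 47.0 ± 1.16 in Control (SD, n = 3), against 20.6 in A2ko and 14.4 in A8ko, while the C9ko pair had 14.5 and 14.4.

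In the mucosal pair, too, the type II partner KRT4 was lower relative to its type I partner in the knockouts. KRT4 had 2.13, 2.23 and 2.03 TPM for each TPM of KRT13 in Control (mean 2.13 ± 0.0991, SD, n = 3). The same ratio came to 0.454 for A2ko, 0.0474 for A8ko, and 0.815 and 0.343 for the C9ko pair. All 4 knockout values were below the Control range, and each C9ko ratio rested on levels of at most 2.50 TPM. The summed TPM of KRT4 and KRT13 was 293 ± 5.67 in Control (SD, n = 3), against 121 in A2ko and 2.33 in A8ko, while the C9ko pair had 3.05 and 3.35. Among the 6 keratins the mucosal pair thus held the largest share in Control and in A2ko, but not in A8ko or C9ko.

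The 6 keratins together made 395 ± 6.19 TPM in Control (SD, n = 3), against 216 TPM in A2ko and 165 TPM in A8ko, while the C9ko pair had 214 and 235 TPM. Within this sum KRT4 went from 50.4% ± 0.337 in Control (SD, n = 3), to 17.5% for A2ko, 0.0639% for A8ko, and 0.639% and 0.364% for the C9ko pair. KRT80 went the opposite way, from 13.8% ± 0.482 in Control (SD, n = 3), to 33.9% for A2ko, 89.7% for A8ko, and 91.5% and 92.3% for the C9ko pair. KRT10 held 7.22% ± 0.198 in Control (SD, n = 3). Its share was above the Control range in A2ko (8.14%) and A8ko (8.72%), and below it in the C9ko pair (6.55% and 5.93%). Without KRT80 the sum was 340 ± 4.51 TPM in Control (SD, n = 3), against 143 in A2ko and 17.03 in A8ko, while the C9ko pair had 18.2 and 18.1.

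The summed level of all 55 keratins was itself lower in the knockouts. It was 18275 ± 561 TPM in Control (SD, n = 3), against 7638 in A2ko and 7133 in A8ko, while the C9ko pair had 10247 and 9926. The 6 genes together made a similar small share of keratin RNA in every group, above the Control range in A2ko and close to it in the others: 2.16% ± 0.0924 in Control (SD, n = 3), against 2.82% in A2ko and 2.32% in A8ko, while the C9ko pair had 2.09% and 2.37%. Without KRT80 the share was 1.86% ± 0.0699 in Control (SD, n = 3) and 1.87% in A2ko. It was much lower in A8ko, at 0.239%, and in the C9ko pair, at 0.177% and 0.182%. As a share of keratin RNA, KRT10 in A2ko and A8ko and KRT13 in A2ko were higher than in Control, by 0.54, 0.36 and 1.08 log2 units, although their TPM was lower. KRT4 ranked 8th among the keratins in Control, 11th in A2ko, 25th in A8ko and 18th in both C9ko libraries. KRT80 moved from 11th in Control to 9th in A2ko and 8th in A8ko and C9ko. Basal KRT5 stayed the most abundant keratin, at 8917 ± 217 TPM in Control (SD, n = 3), against 3081 in A2ko and 4237 in A8ko, while the C9ko pair had 5428 and 5232.

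**Figure D3:**
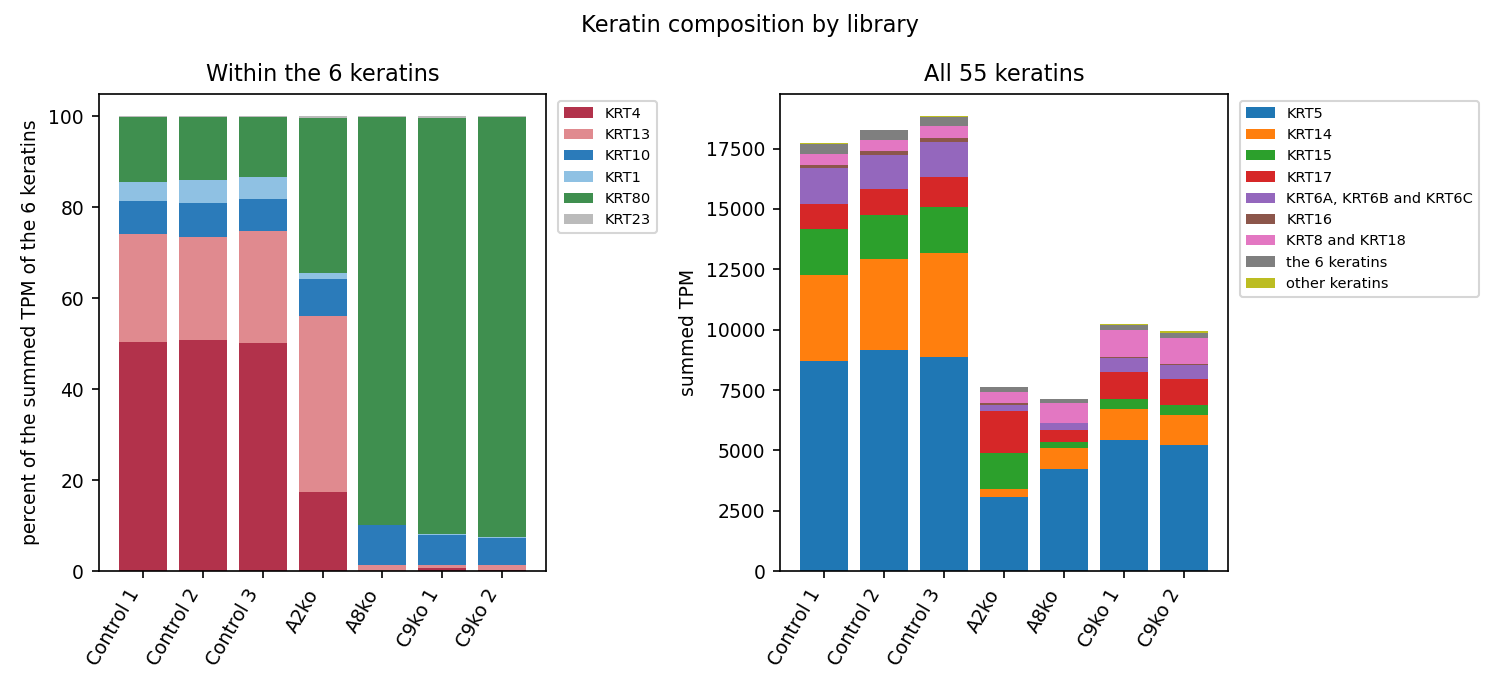
Stacked bars for each library: left, the share of each of the 6 keratins in their sum, in percent; right, the summed TPM of all 55 keratins by gene. KRT4 fills 50.4% of the left bar in Control while KRT80 fills 89.7% to 92.3% in A8ko and C9ko, and the 6 keratins are a thin band of the right bars.

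One promoter window is shown, that of KRT10, the pair member that remained well detected in every knockout. Windows were available from RefSeq (GRCh38.p14) for 2 of the 6 genes, KRT4 and KRT10, and that of KRT4 lies wholly in an untranslated region of the GENCODE model and is not printed. The bases run up to the KRT10 start site, at chr17:40822615-40822864 on the minus strand, read 5′ to 3′ along the gene, and capitals mark the motif matches.
KRT10: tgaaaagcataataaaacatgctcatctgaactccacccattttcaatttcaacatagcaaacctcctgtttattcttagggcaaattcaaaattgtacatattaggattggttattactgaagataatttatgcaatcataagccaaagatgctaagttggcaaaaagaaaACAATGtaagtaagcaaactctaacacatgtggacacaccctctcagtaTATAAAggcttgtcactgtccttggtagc
The motifs searched on both strands of the windows, 300 bases with 50 after the start, were the TATA box as TATAAA, the AP-1 site as TGANTCA, the KLF site as GGGNGTGG, the SOX site as ACAATG, and a p53 family motif. KRT10 held TATAAA beginning 29 bases before the start and ACAATG beginning 78 bases before it, and the KRT4 window held none of the 5. Of 35116 promoter windows of this length, 11.5% held the TATA box letters, 7.71% those of AP-1, 17.2% those of KLF, 10.8% those of SOX and 0.373% those of the p53 family. A match describes the letters only.

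The neighbours of these genes in the keratin clusters varied with position. On chromosome 12, KRT80 lies at 1 end of the type II cluster, 40519 bases from KRT7, a keratin of simple and glandular epithelium, followed by KRT86 and KRT81, hair keratins. In C9ko the log2 differences along this end were 1.90 for KRT80, 2.19 for KRT7, 2.35 for KRT86 and 2.28 for KRT81. In A8ko they were 1.42, 1.11, 0.92 and 1.05 in the same order, all above 0 as in C9ko, and in A2ko 0.41, -0.46, -0.09 and 0.22. KRT7, KRT86 and KRT81 overlap or are near copies in part, so reads may be divided between them uncertainly. KRT1 and KRT4 lie further along, with KRT3, a keratin of corneal epithelium, 10431 bases from KRT4. KRT3 had 1.72 ± 0.0274 TPM in Control (SD, n = 3) and 0.514 in A2ko, was listed at 0 in A8ko and in 1 C9ko library, and had 0.0462 TPM in the other. At the far end KRT8 and KRT18, the pair of simple epithelium, had log2 differences of 1.19 and 1.29 in C9ko, 0.42 and 1.05 in A8ko, and -0.06 and -0.04 in A2ko.

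On chromosome 17 the nearest tested neighbour of KRT13 was KRT15, a basal keratin 8037 bases away. KRT15 had 1871 ± 62.2 TPM in Control (SD, n = 3), against 1497 in A2ko and 266 in A8ko, while the C9ko pair had 412 and 419. As with KRT13, the A2ko level was below the Control range but nearest to it, and A8ko and C9ko were far below. KRT14, the basal partner of KRT5 on the same chromosome, had its lowest level in A2ko instead, with 3877 ± 375 TPM in Control (SD, n = 3), against 313 in A2ko and 867 in A8ko, while the C9ko pair had 1283 and 1247. The keratins on each side of KRT10 (KRT28 and KRT12) and of KRT23 (KRT20 and KRT39) did not pass the filter on low values.

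**Figure D4:**
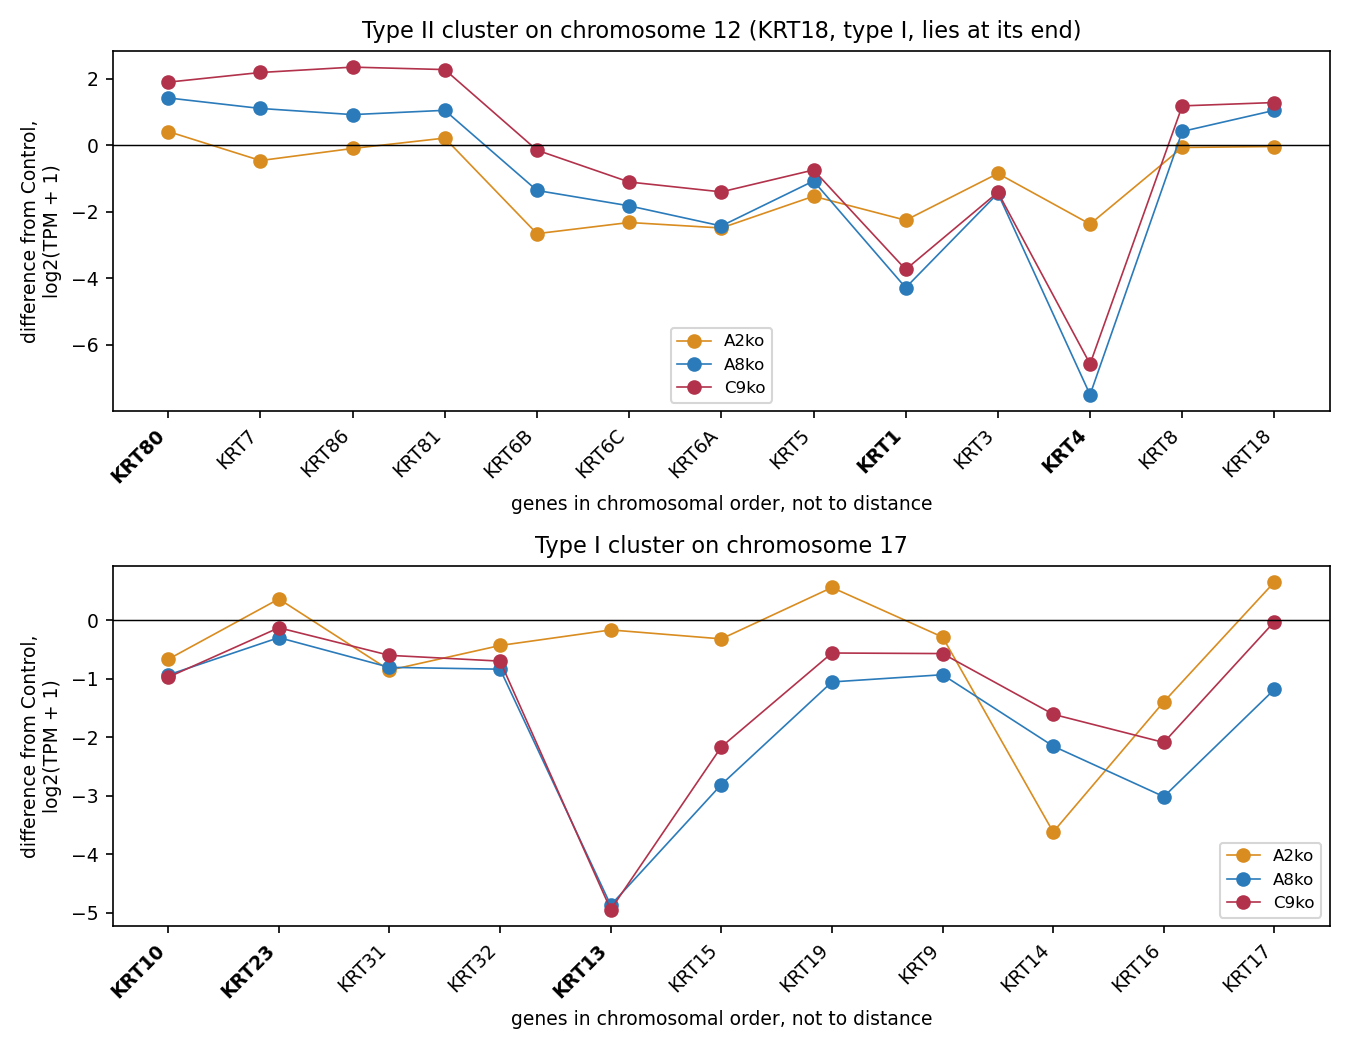
Difference from Control on the log2(TPM + 1) scale for the keratins that passed the filter and KRT23, in chromosomal order and not to distance, with 1 line per knockout group. On chromosome 12 KRT80 to KRT81 and KRT8 to KRT18 lie above 0 in A8ko and C9ko around lower genes between them, and on chromosome 17 KRT13 and KRT15 are low in A8ko and C9ko but nearer to Control in A2ko.

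The other keratins were tested in C9ko with limma, where 2 libraries allow it, and 29.5% of all genes passed an adjusted p-value of 0.05 (22% higher and 7.42% lower). Of 26 other type I keratins 9 were tested, and 1 rose and 5 fell. KRT18 rose by 1.29 log2 units (SE 0.07, adjusted p = 6.10e-05 by limma). KRT15 fell by 2.17 (SE 0.07, adjusted p = 8.92e-06), and KRT16, a keratin of wounded and stressed epithelium, fell by 2.09 (SE 0.07, adjusted p = 1.56e-05). KRT14 fell by 1.61 (SE 0.10, adjusted p = 8.16e-05). The smaller falls of KRT19 and KRT32 (adjusted p = 0.0193 and 0.0213 by limma) did not pass when C9ko 1 or C9ko 2 was left out, nor without Control 1 or Control 3 for KRT19 and without Control 2 for KRT32. KRT17, which pairs with the KRT6 keratins, was not called (-0.03, adjusted p = 0.858 by limma), nor were KRT9 and KRT31 (adjusted p = 0.0574 and 0.0598). KRT9 passed without Control 3 (adjusted p = 0.0476), and both KRT9 and KRT31 passed with scaling by the median of ratios. KRT9, KRT31 and KRT32, all under 5 TPM, are named after their values were seen, and they reached 1 TPM in Control libraries only. When C9ko 1 or C9ko 2 was left out, 3 type I keratins passed as lower.

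Of 23 other type II keratins 9 were tested, 4 rose and 4 fell in C9ko. KRT86, KRT81 and KRT7 rose by 2.35, 2.28 and 2.19 log2 units (SE 0.15, 0.15 and 0.10), with adjusted p-values of 8.80e-05, 0.000108 and 3.35e-05 by limma. KRT86 and KRT81 were under 1 TPM in Control and A2ko, so they passed the filter only through A8ko and C9ko. KRT8 rose by 1.19 (SE 0.08, adjusted p = 0.000127 by limma). KRT3 and KRT6A fell by 1.41 and 1.40 (SE 0.16 and 0.07, adjusted p = 0.000931 and 3.48e-05 by limma). KRT3 had at most 0.514 TPM in the knockouts and passed the filter only through Control, so its call is no independent support. KRT6C fell by 1.10 (SE 0.09, adjusted p = 0.000252 by limma) and KRT5 by 0.74 (SE 0.09, adjusted p = 0.00119). KRT6B was not called at -0.15 (adjusted p = 0.151 by limma), but was called lower at -0.27 with scaling by the median of ratios (adjusted p = 0.0194) and at -0.25 without mitochondrial genes (adjusted p = 0.0256). KRT6A, KRT6B and KRT6C are near-identical, so the division of reads between them is uncertain. Over the tested type II keratins the median log2 difference was -0.85 for A2ko, -1.07 for A8ko and -0.15 for C9ko, and over the type I keratins -0.32, -1.06 and -0.60. The medians over all tested genes were 0.12, 0.09 and 0.11, and -0.03, 0.02 and 0.00 with scaling by the median of ratios. That scaling also changed the share of rises among called genes in C9ko, from 74.8% to 56.3%, and leaving out mitochondrial genes gave 60.7%.

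Genes that accompany these keratins in mucosal epithelium were mostly lower in C9ko. Of 25 listed genes of oral and oesophageal suprabasal layers 13 were tested, and 2 rose and 9 fell in C9ko. Over all genes 22% rose and 7.42% fell. This list and the 3 that follow were written with earlier results of these data known, so such shares are given for scale only. LY6D, a surface protein of stratified epithelium, fell by 2.85 log2 units (SE 0.07, adjusted p = 6.55e-06 by limma). SCEL, the cornified envelope protein sciellin, fell by 1.97 (SE 0.12), and TMPRSS11D, an airway and oral serine protease, by 1.22 (SE 0.16). Against that direction SPRR3, an envelope precursor, rose by 1.53 (SE 0.20) and CNFN, cornifelin, by 1.10 (SE 0.20). With pseudocounts of 0.1 and 5, TMPRSS11D differed by -2.91 and -0.37 and SPRR3 by 2.37 and 0.64, so the levels behind both were low. Low genes can pass the filter through 1 group alone, so the calls of TMPRSS11D and SPRR3 are no independent support. LY6D had 1748 ± 97.8 TPM in Control (SD, n = 3), against 931 in A2ko and 167 in A8ko, while the C9ko pair had 238 and 244, the same order of groups as KRT4. Outside the Control range by 1 log2 unit were 1 higher and 4 lower in A2ko and 2 higher and 4 lower in A8ko. The shares over all genes were 3.54% higher and 1.53% lower in A2ko, and 2.05% and 2.68% in A8ko.

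Of 25 listed spinous and granular genes of epidermis, the layers where KRT1 and KRT10 are made, 12 were tested. In C9ko 3 rose and 5 fell, beside 22% and 7.42% of all genes. KRTDAP, a secreted protein of differentiating keratinocytes, fell by 3.03 log2 units (SE 0.23), SBSN, suprabasin, by 1.61 (SE 0.15) and IVL, the envelope protein involucrin, by 1.27 (SE 0.16). IVL had 1.96 to 2.08 TPM in Control and at most 0.601 TPM in the knockouts, so it passed the filter only through Control. CASP14, a protease of terminal differentiation, rose by 1.27 (SE 0.18), KLK5, a protease of cell shedding, by 0.88 (SE 0.07) and DMKN, dermokine, by 0.55 (SE 0.06). With pseudocounts of 0.1 and 5, SBSN differed by -2.88 and -0.60 and CASP14 by 3.17 and 0.38, so the levels behind both were low. Low genes can pass the filter through 1 group alone, so the calls of SBSN and CASP14 are no independent support. KRTDAP had 15.2 ± 2.31 TPM in Control (SD, n = 3), against 0.462 in A2ko and 0.881 in A8ko, while the C9ko pair had 0.533 and 1.55, low in every knockout as KRT1 was. Since it reached 1 TPM in just 1 knockout library, KRTDAP too passed the filter only through Control. Its call is no independent support. In A2ko 4 genes of this list were outside the Control range as lower and none as higher, and in A8ko 6 were lower and none higher. Beside these, 1.53% of all genes were lower and 3.54% higher in A2ko, and 2.68% and 2.05% in A8ko.

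Of 26 transcription factors and Notch genes of keratinocyte differentiation 24 were tested. In C9ko 7 rose and 12 fell, beside 22% and 7.42% of all genes. The falls included ZNF750 (-1.47, SE 0.08), a factor needed for late differentiation, and CEBPA (-1.39, SE 0.10). ZNF750 had 14.2 ± 0.256 TPM in Control (SD, n = 3), against 8.82 in A2ko and 1.46 in A8ko, while the C9ko pair had 4.69 and 4.31. SOX2, also on the basal list, fell by 3.18 (SE 0.12) and was at most 0.483 TPM in the knockout libraries against 10.2 ± 0.313 TPM in Control (SD, n = 3). It thus passed the filter only through Control. OVOL1, CEBPB and KLF4, factors that promote differentiation, rose by 1.13 (SE 0.10), 0.86 (SE 0.09) and 0.64 (SE 0.07). In A2ko 1 gene of this list was outside the Control range as higher and 2 as lower, and in A8ko none as higher and 5 as lower. Over all genes the shares were 3.54% higher and 1.53% lower in A2ko, and 2.05% and 2.68% in A8ko.

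All 15 basal layer genes were tested, and 8 rose and 4 fell in C9ko, beside 22% and 7.42% of all genes. The rises included those of the integrins ITGB1 (1.005, SE 0.07) and ITGA3 (0.94, SE 0.06), which anchor basal cells to the matrix. The falls were SOX2 and the keratins KRT5, KRT14 and KRT15 given above. Genes were named from these 4 lists only where they passed the limma test, so their passing is no result, and their largest adjusted p was 0.00680. The lists' medians in C9ko were -0.63 for mucosal, -0.34 for epidermal, -0.32 for regulator and 0.29 for basal genes, beside 0.11 over all genes.

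**Figure D5:**
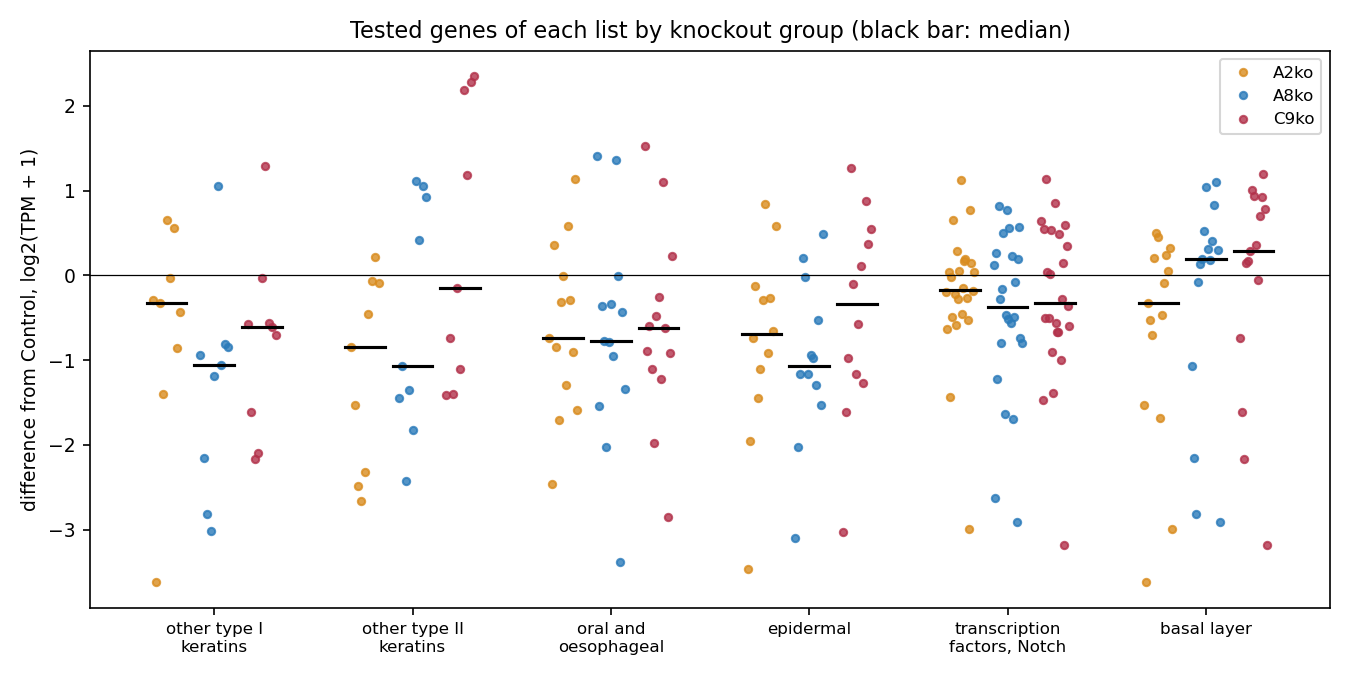
Difference from Control on the log2(TPM + 1) scale for every tested gene of 6 lists, 1 point per gene and knockout group, with a black bar at the median. Mucosal medians lie at -0.74, -0.77 and -0.63 in A2ko, A8ko and C9ko, whereas the basal median is -0.32 in A2ko and 0.19 and 0.29 in A8ko and C9ko.

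Over the 7 libraries, KRT1, KRT4, KRT10 and KRT13 varied together, and KRT80 opposite to them. Pearson's r of log2 levels was 0.98 between KRT1 and KRT4, 0.99 between KRT1 and KRT10, 0.97 between KRT4 and KRT13 and 0.88 between KRT10 and KRT13. KRT80 had r of -0.93 to -0.97 with these 4, and KRT23 had 0.30 to 0.60 with them. These 7 points include the 3 Control libraries, which lie together, so r describes mainly how the groups are placed, and no p is given.

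Among 3220 other tested genes with a symbol that spanned at least 1 log2 unit, those most like each keratin by the same r were as follows. KRT1 was closest to S100A4, a calcium-binding protein, PKP1, a desmosomal plaque protein, and KRT3 (r of 0.997, 0.997 and 0.996). KRT4 was closest to LY6D, PTPRZ1 and MAB21L4 (r of 0.998, 0.995 and 0.993). KRT10 was closest to P2RY2, a nucleotide receptor, KRT3 and IVL (r of 0.996, 0.995 and 0.994). PKP1 had 171 ± 12.1 TPM in Control (SD, n = 3), against 73.6 in A2ko and 38.7 in A8ko, while the C9ko pair had 40.9 and 40.5, in the order of groups seen for KRT1 and KRT4.

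KRT13 was closest to SESN3, a stress-responsive sestrin (r of 0.999), followed by RAPGEFL1 and SLC27A2 (r of 0.992 and 0.991). SESN3 had 5.56 ± 0.0826 TPM in Control (SD, n = 3), against 5.09 in A2ko and 0.109 in A8ko, while the C9ko pair had 0.0715 and 0.0816. Like KRT13, it was much nearer to Control in A2ko than in the other knockouts. KRT80 was closest to SAA1, an acute-phase protein, RAB42 and C1QTNF1 (r of 0.999, 0.997 and 0.997). SAA1 had 79.7 ± 5.01 TPM in Control (SD, n = 3), against 112 in A2ko and 286 in A8ko, while the C9ko pair had 429 and 522. For KRT23, at its low level, the closest were SLC24A1, TUBB8B and ACYP2 (r of 0.961, 0.949 and 0.949). An r of at least 0.99 was reached by 7 genes for KRT1, 7 for KRT4, 8 for KRT10 and 5 for KRT13. For KRT80 there were 15 such genes and for KRT23 0, so the named genes are not set apart. Spearman's rho was lower for several of them, down to 0.821 for SESN3.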

How the data were processed

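Per the labels' protocols, polyA RNA was taken from CAL27 cells with TRIzol and made into strand-specific dUTP libraries from 2 ug of total RNA. The authors deposited TPM per gene, and hg38 is the build in the submitters' processing notes. The aligner, quantification tool, annotation and use of strand in counting are not given in the sources used here. TPM keeps no depth, so no counting interval is given. A library's TPM sum to a fixed total, so a change in abundant genes shifts the values of the others.

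Symbols were matched for 42165 of 78894 identifiers, and positions came from GENCODE 29 (GRCh38). Values were analysed as log2(TPM + 1), a scale that understates differences of low genes. Genes with at least 1 TPM in at least 2 distinct libraries were kept (17100). Low genes that reached 1 TPM only where they are high, such as KRT3, IVL and SOX2, were kept through that group. Their calls are no independent support. Limma 3.58.1 in R 4.3.3 fitted the 4 groups together (eBayes with trend), contrasted C9ko with Control and adjusted p-values by the Benjamini-Hochberg method over all kept genes, with a threshold of 0.05. C9ko had 2 libraries and Control 3, and A2ko and A8ko, with 1 each, were compared with the Control range.

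The keratins and all gene lists were chosen with earlier results of these data known. Genes named are the 6 keratins, other keratins with at least 5 TPM in a library, the 3 most similar genes of each keratin, neighbours and overlapping genes, and the 3 called genes with the largest rise and the 3 with the largest fall in C9ko for each of the 4 differentiation lists. Further genes are marked in the text or are cell type markers. A single gene that this rule names is not reported here. Alternatives changed the pseudocount, filter, scaling, samples and blocking.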

Additional observations from a re-analysis of the deposited data

Results flagged for a closer look

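KRT23 moved in opposite directions in A2ko and A8ko: its log2(TPM + 1) difference from Control was 0.36 in A2ko and -0.30 in A8ko, 0.66 apart (0.661 before rounding). Each group had 1 distinct library and the gene lay between 0.289 and 1.04 TPM, and the difference between the groups was not tested.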

How the results depend on the processing

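Over all settings the signs of the 6 keratins' differences held for 150 of 156 values. As a share of keratin TPM the signs changed for KRT10 in A2ko (0.54) and A8ko (0.36), KRT13 in A2ko (1.08), and KRT23 in A8ko (0.13) and C9ko (0.18). KRT23 in C9ko was also 0.03 without C9ko replicate 2. The pseudocount set the size of differences near 0: KRT4 in A8ko was -9.92 with 0.1 and -5.32 with 5. Of 555 values for other named genes in C9ko, 532 kept their side of the threshold, 11 gained a call (KRT9, KRT31 and KRT6B) and 12 lost one (KRT19, KRT32, KRT5 and CNFN). The count of genes called in C9ko, 5038, was 8166 with all 9 files as separate libraries, 3246 with the replicate block, and 3301 to 4174 when a library was left out, lowest without C9ko replicate 2. Same-numbered libraries did not deviate together (r of -0.0529 and -0.0124), so the numbers were not taken as pairs. Genes outside the Control range numbered 867 in A2ko, and 1813 with a pseudocount of 0.1, 248 with 5, 380 with a mean of at least 5 TPM and 893 to 909 without a Control library. In A8ko 809 became 1689, 269, 412 and 843 to 870 in the same order. In C9ko 874 became 1638, 330, 525 and 900 to 1028, the last when a Control or C9ko library was left out. The cause of these changes was not tested. Depth is unknown, so levels near 0 have no counting interval.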
